A study of Mus musculus with 25 samples.

Results

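Islets labelled db_REG3B were compared with islets labelled db_GFP, with 2 libraries a group, so that 4 of the 25 samples of the series entered. The comparison was chosen by its sample groups and covered every gene of their table. Of 16958 genes, 12507 reached at least 1 FPKM (fragments per kilobase of transcript and per unit of library size) in at least 2 of the 4 libraries and were tested. Islets are the hormone-secreting cell clusters of the pancreas, and each islet sample was a pool from at least 3 mice. Both groups carry the label db, and they differ by GFP, a green fluorescent protein used as a control, against REG3B. The labels spell out neither db nor how, where or for how long GFP or REG3B was given, and they state no age, sex or strain. As background, db is a common short name for a leptin receptor mutation that makes mice obese and diabetic, which the labels do not state. The labels also do not say whether the pools of a group came from separate mice. The p-values below therefore measure only the spread between these libraries, which may be technical.

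Beta cells make insulin and release it when glucose enters the cell and is burned. Transcription factors such as PDX1 and MAFA keep their identity, and in long-standing diabetes beta cells can lose these factors and take up genes of progenitor or other cell types, a process called dedifferentiation. REG3B is a secreted lectin of the pancreas and gut, known as an antimicrobial and acute-phase protein, and EXTL3 has been described as a receptor for REG proteins.

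The FPKM sum differed between the groups, which matters for every change given here. It was 934094 and 944121 in db_GFP and 1173340 and 1203950 in db_REG3B, and without the insulin genes Ins1 and Ins2 it was 610540 and 613803 against 531110 and 542306. Changes are log2 differences of FPKM + 1 tested with limma (two-sided, Benjamini-Hochberg adjustment over all genes tested, threshold 0.05). On the deposited scale 1530 genes (12.2%) were higher in db_REG3B and 3856 (30.8%) lower, with a median change of -0.06. With libraries rescaled to an equal FPKM sum, which adds -0.34 to every change of a well-expressed gene, 298 genes (2.38%) were higher and 10367 (82.9%) lower. Rescaling to an equal sum without the insulin genes adds 0.19, and median scaling (which sets the typical gene equal between libraries) adds 0.07. The share of higher genes among all calls was 28.4% on the deposited scale, 2.79% on the equal sum, 66.1% without the insulin genes and 44.7% after median scaling. "Rose" and "fell" are therefore kept for genes called in 1 direction on all 4 scales, of which 298 rose (2.38%) and 2477 fell (19.8%). This rule asks more of a rise than of a fall. A rise must outweigh the shift of -0.34 of the equal sum, and a fall only the shift of 0.19 without the insulin genes. The excess of falls thus depends in part on the rule, and after median scaling 2590 genes were higher and 3203 lower. Each count of list members that rose or fell is to be read beside the 2.38% and 19.8% of all genes tested. "Did not pass" refers to the deposited scale. The db_GFP and db_REG3B libraries did not overlap in 8921 genes (71.3%), so a lack of overlap is the rule in this table and not a property of the genes below. Without db_GFP replicate 1 the genes higher on the deposited scale numbered 855 and those lower 2292, and without db_GFP replicate 2 they numbered 816 and 2330. Genes that fell on all 4 scales numbered 1632 without db_GFP replicate 1 and 1659 to 2455 without another library, and those that rose 237 to 275. Replicates were close, with a robust SD of the log2 ratio of 0.0468 in db_GFP and 0.0688 in db_REG3B over 660 genes of at least 100 FPKM. An exact permutation test of 2 libraries against 2 cannot go below p = 0.333, so no single gene could be tested that way.

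Insulin transcripts made the largest difference in FPKM. Ins1 measured 77139.6 and 78764 FPKM in db_GFP and 162068 and 151084 FPKM in db_REG3B. Ins2 measured 246415 and 251555 FPKM in db_GFP and 480166 and 510561 FPKM in db_REG3B. Both genes were higher in each db_REG3B library than in either db_GFP library. Ins1 rose 2.01-fold (log2 change 1.01, SE 0.0564, adjusted p = 1.02e-06) and Ins2 1.99-fold (log2 change 0.99, SE 0.0629, adjusted p = 2.23e-06), and on the equal-sum scale the log2 changes were 0.67 and 0.65. With no filter on low values Ins2 kept its log2 change but missed the threshold (adjusted p = 0.0893). Iapp encodes amylin, which beta cells secrete together with insulin, and it measured 54472 and 53257 FPKM in db_GFP and 53676 and 55302 FPKM in db_REG3B. Its libraries overlapped and it did not pass (log2 change 0.02, SE 0.048, adjusted p = 0.812, on the equal-sum scale -0.32). The ratio of insulin to Iapp transcripts was thus 5.94 and 6.20 in db_GFP and 12.0 and 12.0 in db_REG3B. In whole islets, fewer cells of a type and less RNA per cell cannot be told apart, here and in all that follows.

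**Figure D1:**
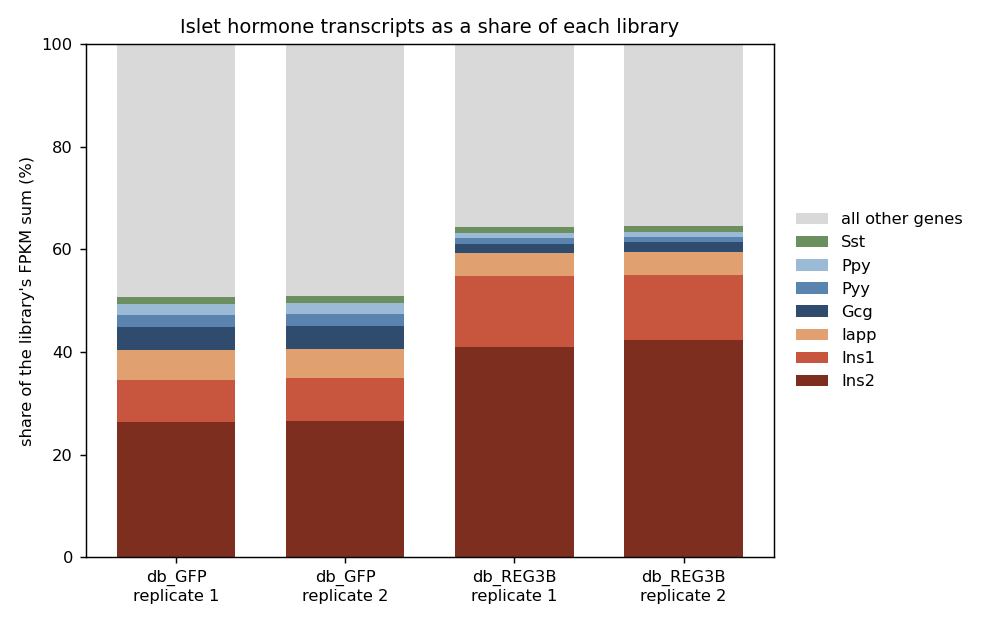
Stacked bars give the share of each library's FPKM sum (vertical axis, percent) taken by islet hormone transcripts in the 4 libraries. Insulin (Ins1 and Ins2) took 34.6 and 35.0% in db_GFP and 54.7 and 55.0% in db_REG3B, while glucagon (Gcg) took 4.33 and 4.37% against 1.82 and 1.79%.

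Transcripts for the proteins that turn proinsulin into stored insulin moved unevenly. Of 10 genes for insulin, amylin and prohormone processing, 4 rose and 1 fell (median change 0.12), and 2 fell without db_REG3B replicate 1. Pcsk1 encodes the convertase that begins the cleavage of proinsulin, and it measured 68.9 and 66.7 FPKM in db_GFP and 128 and 132 FPKM in db_REG3B. Slc30a8 encodes the zinc transporter that loads the granules in which insulin crystallizes, and it measured 154 and 147 FPKM in db_GFP and 233 and 249 FPKM in db_REG3B. Neither gene overlapped between the groups. Pcsk1 rose (log2 change 0.93, SE 0.0434, adjusted p = 3.07e-07) and so did Slc30a8 (log2 change 0.67, SE 0.0465, adjusted p = 3.88e-06). Pam, an enzyme that amidates peptide hormones, was the member that fell, from 351 and 349.5 to 246 and 260.0 FPKM (log2 change -0.47, SE 0.0413, adjusted p = 1.83e-05).

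Among 18 tested transcription factors of beta cells, 2 rose and 1 fell, with a median change of 0.00. The largest change was in Mafa, an activator of the insulin genes that is high in mature beta cells. Mafa measured 133 and 126 FPKM in db_GFP and 395 and 399.9 FPKM in db_REG3B, with both db_REG3B libraries above both db_GFP libraries by a wide margin. It rose 3.08-fold (log2 change 1.61, SE 0.042, adjusted p = 9.52e-09), with 1.28 on the equal-sum scale and 1.80 on the scale without insulin. Pdx1, the pancreatic master regulator, measured 123 and 121 FPKM in db_GFP and 159 and 175 FPKM in db_REG3B. Its change was smaller (log2 change 0.45, SE 0.0508, adjusted p = 0.0001) and only just passed on the equal-sum scale (0.11, adjusted p = 0.0458). The count of factors that rose on all 4 scales was 1, not 2, when db_GFP replicate 1, db_GFP replicate 2 or db_REG3B replicate 2 was left out. Mlxipl, the glucose-responsive factor ChREBP, was higher on the deposited scale (log2 change 0.36, SE 0.0469, adjusted p = 0.000231) but not on the equal-sum scale (log2 change 0.02). Rfx6, a factor of islet development, fell from 33.7 and 33.6 to 25.7 and 27.4 FPKM (log2 change -0.33, SE 0.0537, adjusted p = 0.000903), and the count of factors that fell was 0 without db_GFP replicate 1, db_GFP replicate 2 or db_REG3B replicate 1.

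The insulin promoter is the best known target of these factors, and its E box, with the letters CATCTG, is bound by NEUROD1 and its partners. The 250 bases before the start of Ins1 (RefSeq, GRCm38.p6, chr19:52264047-52264296, plus strand) are shown because insulin carries the largest difference in FPKM. The capitals mark the CATCTG match, 84 bases before the start.
Ins1: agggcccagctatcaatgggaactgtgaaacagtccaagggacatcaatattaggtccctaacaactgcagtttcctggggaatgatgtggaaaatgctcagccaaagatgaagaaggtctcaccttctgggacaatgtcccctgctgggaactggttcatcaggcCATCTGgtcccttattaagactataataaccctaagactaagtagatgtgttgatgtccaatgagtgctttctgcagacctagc
CATCTG, searched on both strands (CAGATG on the other), occurs in 14.4% of 32851 promoter windows of this length, so its presence is a description and not a sign of use. Neurod1 itself did not pass, at 93.6 and 89.4 FPKM in db_GFP and 97.1 and 88.2 FPKM in db_REG3B (log2 change 0.02, SE 0.0545, adjusted p = 0.831).

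Many genes of glucose sensing and beta cell maturity rose. Of 18 tested, 9 rose and 0 fell, and 14 were higher on the deposited scale (median change 0.47, on the equal-sum scale 0.15). The count stayed at 9 whichever library was left out. Slc2a2 encodes GLUT2, the glucose transporter of mouse beta cells. It measured 49.1 and 49.2 FPKM in db_GFP and 135 and 140.1 FPKM in db_REG3B. The db_REG3B libraries lay far above the db_GFP libraries, a 2.79-fold difference (log2 change 1.46, SE 0.0438, adjusted p = 2.06e-08). Trpm5, a calcium-activated cation channel of beta cells and taste cells, measured 6.9 and 7.55 FPKM in db_GFP and 24.5 and 22.9 FPKM in db_REG3B and rose 3.28-fold (log2 change 1.58, SE 0.0691, adjusted p = 2.06e-07). Gad1, which makes the transmitter GABA, measured 12.4 and 13.1 FPKM in db_GFP and 30.7 and 30.5 FPKM in db_REG3B. Gipr is the receptor for the gut hormone GIP, and it measured 17.8 and 17.4 FPKM in db_GFP and 32.4 and 36.2 FPKM in db_REG3B. Both were higher in each db_REG3B library, and both rose (log2 change 1.20, SE 0.0572, adjusted p = 3.62e-07 for Gad1 and log2 change 0.92, SE 0.0639, adjusted p = 4.13e-06 for Gipr). The other 5 genes that rose, named to complete the count and outside the naming rule, were Prlr, Sytl4, Pcx, Ucn3 and G6pc2, with log2 changes of 0.86, 0.84, 0.82, 0.74 and 0.65. Pcx encodes the enzyme that feeds pyruvate into the citric acid cycle, and urocortin 3 (Ucn3) is a marker of mature mouse beta cells.

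**Figure D2:**
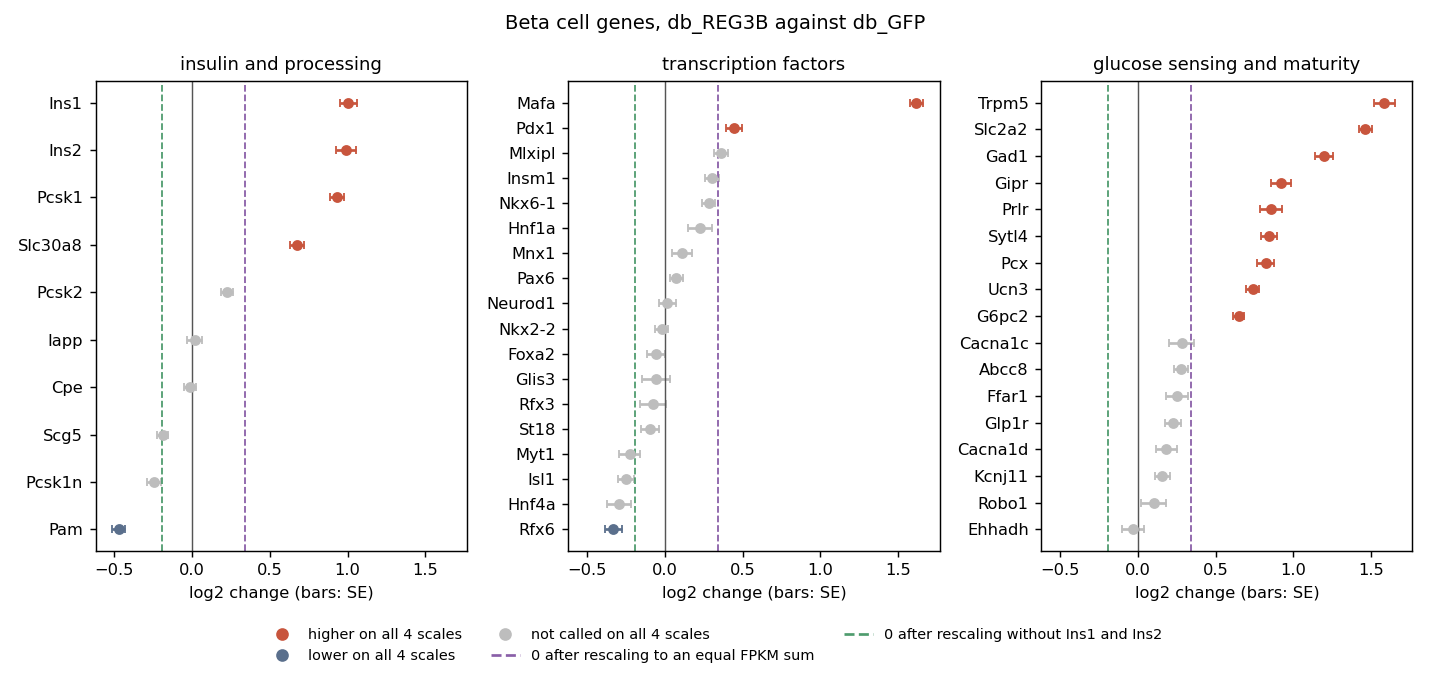
Points give each gene's log2 change of FPKM + 1 (horizontal axis, bars are SE) in 3 groups of beta cell genes, red for genes that rose on all 4 scales, blue for those that fell and grey for the rest. Dashed lines mark where 0 would lie after rescaling to an equal FPKM sum (log2 change 0.34) and after rescaling without the insulin genes (log2 change -0.19), and Mafa, Trpm5 and Slc2a2 lie farthest to the right.

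Genes of the granule and its release machinery were called in both directions. Of 9 tested granins and granule proteins 0 rose and 2 fell (median -0.06), with 2 higher and 3 lower on the deposited scale. Of all genes tested, 2.38% rose and 19.8% fell. Of 18 tested exocytosis genes 1 rose and 1 fell (median 0.08), with 8 higher and 2 lower on the deposited scale. Chgb encodes chromogranin B, a main soluble protein of the granule, and it measured 5200.3 and 5259.6 FPKM in db_GFP and 2414 and 2496 FPKM in db_REG3B. It was lower in both db_REG3B libraries and fell (log2 change -1.09, SE 0.0381, adjusted p = 5.2e-08), while Chga, the gene for chromogranin A, did not pass (3975 and 3986 against 4099 and 4129 FPKM, log2 change 0.05, SE 0.0365, adjusted p = 0.331). Cd63, a tetraspanin of granule and lysosome membranes, fell as well (log2 change -0.45). Unc13a, a priming factor of vesicle fusion, rose (14.3 and 13.7 against 20.8 and 22.9 FPKM, log2 change 0.61, SE 0.0655, adjusted p = 7.1e-05), and Stx1a, the plasma membrane SNARE, fell (11 and 11.2 against 7.49 and 7.21 FPKM, log2 change -0.53, SE 0.0667, adjusted p = 0.000184). Scg2, Syt4 and Napa were higher on the deposited scale (0.30, 0.39 and 0.33) and near 0 or below it on the equal-sum scale (-0.04, 0.06 and -0.01).

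Transcripts of the other islet hormone cells were lower. Of 12 tested, 9 fell and 0 rose (median change -0.62). Gcg, which encodes glucagon in alpha cells, measured 40448 and 41226 FPKM in db_GFP and 21326 and 21579 FPKM in db_REG3B. Pyy, which encodes the gut and islet hormone peptide YY, measured 23276 and 23051 FPKM in db_GFP and 12194 and 12437 FPKM in db_REG3B. Ppy, the pancreatic polypeptide gene, measured 18775 and 19364 FPKM in db_GFP and 12828 and 12475 FPKM in db_REG3B. All 3 genes were lower in each db_REG3B library than in either db_GFP library. Gcg fell (log2 change -0.93, SE 0.0438, adjusted p = 3.38e-07), as did Pyy (log2 change -0.91, SE 0.0414, adjusted p = 2.68e-07) and Ppy (log2 change -0.59, SE 0.0428, adjusted p = 5.14e-06). Irx1, an alpha cell factor, fell from 13.8 and 12.6 to 7.73 and 7.56 FPKM (log2 change -0.71, SE 0.0699, adjusted p = 3.86e-05). The delta cell hormone gene Sst did not pass at 13246 and 13471 FPKM in db_GFP and 12072 and 13019.8 FPKM in db_REG3B (log2 change -0.09, SE 0.0476, adjusted p = 0.155). Its change was -0.43 on the equal-sum scale and 0.10 on the scale without insulin, and it passed as lower without db_REG3B replicate 2 (-0.15, adjusted p = 0.0235). The ratio of insulin to glucagon transcripts was 8.00 and 8.01 in db_GFP and 30.1 and 30.7 in db_REG3B.

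Genes of dedifferentiation, and genes that beta cells normally keep silent (disallowed genes), fell with few exceptions. Of 16 tested, 14 fell and 1 rose (median change -0.98), and 11 to 14 fell when a library was left out. The peptide hormone genes Cck and Gast, made by gut endocrine cells and reported in diabetic beta cells, had the largest changes. Cck measured 72.8 and 74.4 FPKM in db_GFP and 8.14 and 10.2 FPKM in db_REG3B. Gast measured 39.3 and 36.6 FPKM in db_GFP and 3.95 and 5.64 FPKM in db_REG3B. In neither gene did the groups come close, and Cck was 8.04-fold lower (log2 change -2.88, SE 0.0854, adjusted p = 2.01e-08) and Gast 7.92-fold lower (log2 change -2.76, SE 0.118, adjusted p = 1.89e-07). Igfbp4, a binding protein for insulin-like growth factors, fell from 26.3 and 24.4 to 2.83 and 3.55 FPKM (log2 change -2.66, SE 0.0907, adjusted p = 4.46e-08), and Pdgfra, a growth factor receptor of mesenchymal cells, from 4.4 and 4.49 to 0.62 and 0.72 FPKM (log2 change -1.71, SE 0.0913, adjusted p = 7.6e-07). The next 3 regulators were singled out after their values were seen. Neurog3, the factor of endocrine progenitors, measured 16.8 and 18.8 FPKM in db_GFP and 7.16 and 6.7 FPKM in db_REG3B and fell (log2 change -1.24). Sox9, a progenitor and duct factor, measured 3.54 and 3.35 FPKM in db_GFP and 0.5 and 0.45 FPKM in db_REG3B and fell (log2 change -1.59). Aldh1a3, often used as a marker of failing beta cells, did not pass at 41.5 and 41.4 FPKM in db_GFP and 43.3 and 45.6 FPKM in db_REG3B (log2 change 0.10, SE 0.0492, adjusted p = 0.137, on the equal-sum scale -0.23). Maob, which breaks down monoamines, was the member that rose (34.4 and 36.1 against 71.8 and 78.4 FPKM, log2 change 1.07). Pdgfra, Sox9 and Igfbp4 are also expressed by non-endocrine cells, whose markers fell in the same libraries, as described with those cells. The part of those cells in these changes was not tested.

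Most glycolysis genes rose. Of 14 tested, 9 rose and 0 fell, with a median change of 0.55 and of 0.22 on the equal-sum scale, and the count was 9 whichever library was left out. On the deposited scale 12 were higher and 1 lower, Hk2, a hexokinase gene chosen after its value was seen (log2 change -0.26). Tpi1, triosephosphate isomerase, measured 218 and 226 FPKM in db_GFP and 394 and 412 FPKM in db_REG3B. Pgk1, phosphoglycerate kinase, measured 188 and 185 FPKM in db_GFP and 327 and 333 FPKM in db_REG3B. Both db_REG3B libraries were above both db_GFP libraries in each, and both genes rose (log2 change 0.86, SE 0.0414, adjusted p = 3.9e-07 for Tpi1 and log2 change 0.82, SE 0.0377, adjusted p = 2.91e-07 for Pgk1). Pfkl, a subunit of phosphofructokinase, rose from 47.4 and 47.1 to 83.5 and 89.2 FPKM (log2 change 0.86), and the enolase gene Eno2 from 67.2 and 64 to 105 and 108 FPKM (log2 change 0.69). By contrast, 1 of 30 nuclear genes of oxidative phosphorylation rose and 0 fell (median -0.06). Their calls followed the scale, with 29 lower on the equal-sum scale and 16 higher on the scale without insulin. The gene that rose was Cox6a2, the muscle isoform of a cytochrome c oxidase subunit, at 5.18 and 4.07 FPKM in db_GFP and 13.9 and 12.5 FPKM in db_REG3B (log2 change 1.34, SE 0.101, adjusted p = 6.95e-06). The list of glucose-induced genes and genes of fuel use split. Pdk1, a kinase that shuts off pyruvate dehydrogenase, rose (17.3 and 15.9 against 29.3 and 29.6 FPKM, log2 change 0.79), and so did Arrdc4 (log2 change 0.55). Txnip, a glucose-induced inhibitor of thioredoxin, fell (135 and 137 against 78 and 81.9 FPKM, log2 change -0.76, SE 0.0436, adjusted p = 1.18e-06), as did the gluconeogenic gene Fbp1 (10.6 and 11.4 against 3.95 and 4.13 FPKM, log2 change -1.25), Angptl4 (log2 change -0.74), Pklr (log2 change -0.54) and Pdk4 (log2 change -0.53). Pklr, a pyruvate kinase gene of glycolysis, was counted with the fuel genes and not among the 14 glycolysis genes. In all, 2 of 16 fuel genes rose and 5 fell (median -0.11), and 1 rose without db_GFP replicate 2.

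Lipid genes showed no common direction. Of 20 cholesterol synthesis genes 0 rose and 0 fell. On the deposited scale 7 were higher and 2 lower, and Msmo1, Sqle and Insig1 dropped from 0.41, 0.40 and 0.38 there to 0.08, 0.06 and 0.05 on the equal-sum scale. Of 14 lipogenesis genes 1 rose and 3 fell, against 2.38% and 19.8% of all genes tested. Only 2 fell without db_GFP replicate 1, db_GFP replicate 2 or db_REG3B replicate 1. The desaturase genes Scd1 (4.8 and 4.67 against 1.75 and 1.22 FPKM, log2 change -1.21, SE 0.112, adjusted p = 2.49e-05) and Fads2 (12.7 and 11.4 against 5.4 and 5.96 FPKM, log2 change -0.97) fell together with Dgat2 of triglyceride synthesis (log2 change -0.42, deposited-scale adjusted p = 0.0502 without db_GFP replicate 2), and the elongase gene Elovl5 was the member that rose (47.4 and 46.3 against 74.4 and 74.8 FPKM, log2 change 0.66).

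Protein folding in the endoplasmic reticulum, the site of proinsulin folding, was carried by more transcript on the deposited scale. There 21 of 25 genes were higher and 0 lower (median 0.30), but only 6 rose on all 4 scales, and on the equal-sum scale 6 were higher and 7 lower (median -0.04). The calls for most of this group thus depend on the scale. Ero1lb, the beta cell oxidase that forms disulfide bonds, measured 289 and 289 FPKM in db_GFP and 521 and 535 FPKM in db_REG3B. Sdf2l1, a chaperone cofactor, measured 139 and 139.6 FPKM in db_GFP and 222 and 234 FPKM in db_REG3B. Each was higher in both db_REG3B libraries, and each rose (log2 change 0.87, SE 0.037, adjusted p = 1.86e-07 for Ero1lb and log2 change 0.71, SE 0.0415, adjusted p = 1.36e-06 for Sdf2l1). Ero1l (log2 change 0.79) and Creld2 (log2 change 0.58) also rose. In the integrated stress response, which ATF4 drives when translation is restrained, 6 of 17 genes rose and 0 fell (median 0.37). On the equal-sum scale 6 of them were higher and 4 lower (median 0.06). Nupr1 measured 146 and 143 FPKM in db_GFP and 268 and 273 FPKM in db_REG3B and rose (log2 change 0.90, SE 0.0389, adjusted p = 1.96e-07), and so did Trib3, a pseudokinase induced by ATF4 (30.8 and 30.3 against 49.2 and 51.1 FPKM, log2 change 0.70), and Psat1 of serine synthesis (33.9 and 31.6 against 55.5 and 54.7 FPKM, log2 change 0.73). Fgf21, a stress hormone, rose at a low level (1.26 and 0.75 against 2.81 and 2.75 FPKM, log2 change 0.93). The antioxidant list split, with 4 of 18 rising and 5 falling. Hmox1, heme oxygenase 1, measured 52.3 and 51.5 FPKM in db_GFP and 168 and 167 FPKM in db_REG3B. It was 3.23-fold higher (log2 change 1.67, SE 0.0412, adjusted p = 6.35e-09), and its replicates were close. The metallothionein genes Mt1 (289.7 and 288 against 429 and 566 FPKM, log2 change 0.77) and Mt2 (104 and 97.7 against 164 and 209 FPKM, log2 change 0.87) rose, and Srxn1 did too (log2 change 0.44). Gpx3, a secreted glutathione peroxidase, fell (619 and 618 against 284 and 288 FPKM, log2 change -1.11, SE 0.0361, adjusted p = 3.48e-08), as did Cat, the catalase gene (log2 change -0.52), Nfe2l2 (log2 change -0.45), Txn1 (log2 change -0.44) and Prdx1 (log2 change -0.41).

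The largest rise of any named gene, as a log2 change, was in the stress-inducible HSP70 genes Hspa1a and Hspa1b, chaperones that are low in unstressed cells. Hspa1a (chr17:34969359-34972156) measured 7.99 and 8.21 FPKM in db_GFP and 72.8 and 78.7 FPKM in db_REG3B. Hspa1b (chr17:34956429-34959238) measured 7.78 and 7.73 FPKM in db_GFP and 66.4 and 71 FPKM in db_REG3B. Both were high in both db_REG3B libraries and low in both db_GFP libraries, a 9.35-fold and an 8.86-fold difference (log2 change 3.07, SE 0.0583, adjusted p = 2.31e-09 for Hspa1a and log2 change 2.99, SE 0.0567, adjusted p = 2.31e-09 for Hspa1b). The genes are near-identical copies, so their reads may have been split between them and their separate values are uncertain. The other heat shock genes showed no such rise. Of 12 heat shock genes 2 rose and 2 fell (median 0.12), against 2.38% and 19.8% of all genes tested. Hspb1, a small heat shock protein, fell (11.2 and 12.7 against 8.39 and 9.08 FPKM, log2 change -0.41), as did the cochaperone gene Bag3 (49.7 and 47.3 against 37.9 and 39.4 FPKM, log2 change -0.32), and Dnajb1, an HSP40 partner of HSP70, was higher on the deposited scale (17.3 and 19.3 against 22.6 and 23.6 FPKM, log2 change 0.32) and at 0.00 on the equal-sum scale. The count of heat shock genes that fell was 0 without db_GFP replicate 2 or db_REG3B replicate 1, and 1 without db_GFP replicate 1.

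The 250 bases before the start of both genes are shown because the 2 genes rose together and are near-identical copies (RefSeq, GRCm38.p6, minus strand, chr17:34972157-34972406 for Hspa1a and chr17:34959239-34959488 for Hspa1b). The windows are identical at 247 of 250 positions (98.8%). Capitals mark a match to GAANNTTC, a core of the heat shock element that HSF1 binds, 104 bases before each start.
Hspa1a: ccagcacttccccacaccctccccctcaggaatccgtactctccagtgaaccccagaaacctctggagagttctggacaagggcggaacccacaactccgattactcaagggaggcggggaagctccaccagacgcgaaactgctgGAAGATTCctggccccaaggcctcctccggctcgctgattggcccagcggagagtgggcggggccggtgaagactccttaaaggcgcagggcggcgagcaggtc
Hspa1b: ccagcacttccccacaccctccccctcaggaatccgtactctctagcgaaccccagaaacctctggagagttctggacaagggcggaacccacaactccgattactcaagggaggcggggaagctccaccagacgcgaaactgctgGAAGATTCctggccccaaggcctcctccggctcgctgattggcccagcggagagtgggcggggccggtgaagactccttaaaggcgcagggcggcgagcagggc
GAANNTTC reads the same on both strands, and it occurs in 6.69% of all 32851 windows of this length. Of the 15 named genes with the largest rise, 11 had a window in the table, and GAANNTTC was found in these 2.

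Immediate early genes, which follow acute stimulation, mostly fell or did not pass. Of 16 tested, 1 rose and 7 fell (median -0.14). The member that rose was Nr4a1, an orphan nuclear receptor, at 6.5 and 6.35 FPKM in db_GFP and 18.2 and 17.9 FPKM in db_REG3B (log2 change 1.36, SE 0.0631, adjusted p = 3.03e-07). Egr1 measured 31.8 and 30.9 FPKM in db_GFP and 10.7 and 11.8 FPKM in db_REG3B and fell (log2 change -1.40, SE 0.0632, adjusted p = 2.6e-07), as did Klf2 (3.71 and 4.32 against 1.31 and 1.22 FPKM, log2 change -1.14) and Ier3 (39.5 and 40.0 against 20.8 and 19.3 FPKM, log2 change -0.95). In insulin and growth factor signalling, Igf1r, the receptor of insulin-like growth factor 1, rose (10.1 and 10.5 against 19.4 and 19.7 FPKM, log2 change 0.86, SE 0.0599, adjusted p = 4.06e-06), and 2 of 15 genes fell, Igf1 (log2 change -0.57) and Grb10 (log2 change -0.43). That count of 2 was 0 without db_GFP replicate 1 and 1 without db_GFP replicate 2.

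Acute-phase and inflammatory genes were among the largest falls. Of 13 tested inflammation genes and chemokines, 12 fell and 0 rose (median change -1.35), and 8 to 12 fell when a library was left out, 8 without db_GFP replicate 1. Lrg1, a secreted acute-phase glycoprotein, measured 45.4 and 45.2 FPKM in db_GFP and 0.63 and 0.68 FPKM in db_REG3B. Lcn2, a lipocalin that withholds iron from bacteria, measured 268 and 281 FPKM in db_GFP and 15.3 and 15.3 FPKM in db_REG3B. Saa3, a serum amyloid A protein, measured 12.2 and 12.4 FPKM in db_GFP and 0.23 and 0.26 FPKM in db_REG3B. In all 3 genes both db_REG3B libraries were far below both db_GFP libraries. Lrg1 was 69.1-fold lower (log2 change -4.81, SE 0.0688, adjusted p = 7.82e-10), Lcn2 17.9-fold (log2 change -4.08, SE 0.0462, adjusted p = 1.91e-10) and Saa3 50.3-fold (log2 change -3.42, SE 0.0832, adjusted p = 6.23e-09). The folds of Lrg1 and Saa3 divide by db_REG3B means of 0.655 and 0.245 FPKM, below the 1 FPKM of the filter, so their size is uncertain. Ccl2, the main monocyte attractant, measured 13.8 and 12.7 FPKM in db_GFP and 0.11 and 0.11 FPKM in db_REG3B (log2 change -3.68, SE 0.0869, adjusted p = 5.59e-09). Ccl8, another monocyte attractant, measured 5.19 and 7.11 FPKM in db_GFP and was listed at 0 in both db_REG3B libraries. Cfb, complement factor B, fell from 37.5 and 36.5 to 3.07 and 3.52 FPKM (log2 change -3.15, SE 0.0717, adjusted p = 5.44e-09). The adhesion molecule genes Icam1 (9.24 and 9.26 against 1.4 and 1.33 FPKM, log2 change -2.12) and Vcam1 (13.2 and 13.2 against 2.64 and 3.09 FPKM, log2 change -1.88) fell too.

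Promoters of 2 of these genes are shown, chosen after the search because their transcripts had some of the largest falls and their windows hold the motif (RefSeq, GRCm38.p6, minus strand, chr7:46715677-46715926 for Saa3 and chr2:32387740-32387989 for Lcn2). Capitals mark a match to TTGCNNAA on either strand (TTNNGCAA on the other), letters bound by C/EBP factors of the acute-phase response, 99 bases before the start of Saa3 and 216 bases before that of Lcn2. For Saa3 the start is that of the transcript in the promoter table, which lies within the annotated span of the gene (chr7:46711998-46719615).
Saa3: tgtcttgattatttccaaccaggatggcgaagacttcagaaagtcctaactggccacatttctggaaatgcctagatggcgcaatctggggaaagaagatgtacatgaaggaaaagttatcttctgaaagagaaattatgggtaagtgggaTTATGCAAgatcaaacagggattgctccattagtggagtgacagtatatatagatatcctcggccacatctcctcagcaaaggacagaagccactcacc
Lcn2: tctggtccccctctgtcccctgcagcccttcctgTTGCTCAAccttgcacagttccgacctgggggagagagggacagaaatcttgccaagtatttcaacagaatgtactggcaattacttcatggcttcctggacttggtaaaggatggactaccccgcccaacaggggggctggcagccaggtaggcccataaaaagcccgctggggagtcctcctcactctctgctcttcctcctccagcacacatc
The letters occur in 9.56% of the 32851 windows. Of the 15 named genes with the largest fall, 13 had a window, and 3 held a match, Saa3, Lcn2 and Mmp7. Among the 11 windows of the largest rises, 1 held a match, that of Necab2. CATCTG was found in 4 of the 13 windows of falls (Cck, Ccl8, Fbln2 and Serpinf1) and in 1 of the 11 of rises (Angptl7). GAANNTTC was found in 0 of the 13. In the 5 windows printed here no match of 1 motif overlapped a match of another.

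Some interferon-response and antigen presentation genes fell as well. Of 21 tested interferon-response genes, 10 fell and 0 rose (median -0.45). B2m, the light chain of MHC class I, measured 279.7 and 279.8 FPKM in db_GFP and 105 and 107 FPKM in db_REG3B (log2 change -1.40, SE 0.0387, adjusted p = 1.31e-08). H2-K1, a class I heavy chain, fell from 464 and 483 to 299 and 303 FPKM (log2 change -0.65), Gbp2, a guanylate-binding protein, from 4.97 and 4.32 to 2.41 and 2.67 FPKM (log2 change -0.67) and the ubiquitin-like Isg15 from 1.79 and 2.85 to 0.6 and 0.74 FPKM (log2 change -0.97). MHC class II genes, markers of antigen-presenting cells, had 4 of 6 members falling (median -0.41), namely H2-DMb1 (log2 change -0.49), Cd74 (log2 change -0.43), H2-Aa (log2 change -0.41) and H2-Ab1 (log2 change -0.41). Only 1 fell without db_GFP replicate 1. Of 15 genes of JAK-STAT3 signalling, which acute-phase cytokines use, 1 rose and 5 fell (median -0.22). Osmr, the oncostatin M receptor, fell from 3.5 and 3.55 to 1.19 and 1.24 FPKM (log2 change -1.03, SE 0.0882, adjusted p = 1.52e-05) and Socs1, a feedback inhibitor, from 2.46 and 1.75 to 0.72 and 1.02 FPKM (log2 change -0.73). Bcl3 (log2 change -0.48), Bcl6 (log2 change -0.48) and Socs3 (log2 change -0.42) fell as well, while Lifr, the receptor of leukemia inhibitory factor, rose (5.45 and 5.04 against 8.12 and 8.3 FPKM, log2 change 0.56, SE 0.0743, adjusted p = 0.000258), a call that was lost without db_GFP replicate 2.

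Markers of stellate cells and the extracellular matrix they lay down had the lowest median of the 36 lists. Of 18 tested, 17 fell and 0 rose (median change -2.21), and 17 fell whichever library was left out. Col1a1, a chain of type I collagen, measured 381 and 372 FPKM in db_GFP and 58.2 and 62 FPKM in db_REG3B. Col1a2, its partner chain, measured 331 and 328 FPKM in db_GFP and 51.6 and 54.2 FPKM in db_REG3B. The levels in db_GFP were several times those in db_REG3B in both genes (log2 change -2.63, SE 0.0447, adjusted p = 1.49e-09 for Col1a1 and log2 change -2.62, SE 0.0425, adjusted p = 1.42e-09 for Col1a2). Col5a1 fell from 37.8 and 35.8 to 5.64 and 5.72 FPKM (log2 change -2.50) and Dcn, the proteoglycan decorin, from 76.4 and 78.9 to 13.9 and 13.2 FPKM (log2 change -2.43). Rgs5, a pericyte gene chosen after its value was seen, did not pass (16.6 and 14.5 against 14.3 and 14.3 FPKM, log2 change -0.11, SE 0.0722, adjusted p = 0.255). The summed level of the list was 2283 and 2258 FPKM in db_GFP and 475 and 506 FPKM in db_REG3B.

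Markers of other cell types fell too. All 12 tested endothelial genes fell (median -0.84), among them Eng (24.5 and 24.2 against 8.84 and 9.54 FPKM, log2 change -1.32), Cdh5 of endothelial junctions (14.9 and 14.3 against 5 and 5.77 FPKM, log2 change -1.29), Cd34 (log2 change -1.26) and the receptor gene Tie1 (log2 change -0.92). All 14 macrophage genes fell (median -0.98), among them Cd14 (14.8 and 14.1 against 4.98 and 4.97 FPKM, log2 change -1.37), Lyz2 (479.6 and 489 against 211 and 216 FPKM, log2 change -1.18), C1qc (log2 change -1.19) and Fcer1g (log2 change -1.35). Of 9 tested duct genes 8 fell (median -0.85), with Spp1, osteopontin, at 963 and 954 FPKM in db_GFP and 281 and 295 FPKM in db_REG3B (log2 change -1.73, SE 0.039, adjusted p = 5.41e-09) and Muc1 at 15.9 and 13.7 FPKM in db_GFP and 2.87 and 3.58 FPKM in db_REG3B (log2 change -1.91, SE 0.101, adjusted p = 7.36e-07). Acinar genes, which make digestive enzymes, had 15 of 23 tested members falling and 1 rising (median -0.49). Prss1, a trypsinogen, fell from 62 and 59.9 to 19 and 19.9 FPKM (log2 change -1.60), Ctrb1, a chymotrypsinogen, from 478 and 466 to 194 and 198 FPKM (log2 change -1.26) and Gp2, a zymogen granule protein, from 6.71 and 5.89 to 0.62 and 0.74 FPKM (log2 change -2.12). The member that rose, Bhlha15, also serves endocrine cells under stress (31.4 and 29.9 against 40.6 and 45.4 FPKM, log2 change 0.48), and its call on all 4 scales was lost without db_GFP replicate 2 or db_REG3B replicate 2. Lymphocyte markers were near the floor, with 3 of 9 members in the table tested and a summed level of 3.57 to 4.90 FPKM. Of these 3, Ptprc (log2 change -0.67) and Cd4 (log2 change -0.48) fell and Cd79a rose (log2 change 0.97), a call lost without db_REG3B replicate 1 or db_REG3B replicate 2. Without db_GFP replicate 1 or db_GFP replicate 2 the lymphocyte markers that fell numbered 1. Of 4 tested adipocyte, blood and nerve markers 3 fell, among them Fabp4 (log2 change -1.20) and Sox10 (log2 change -1.08), and 1 fell without db_GFP replicate 1 or db_GFP replicate 2. Summed levels were 145 and 146 against 68.9 and 74.2 FPKM for endothelial genes and 1060.4 and 1064 against 517 and 527 FPKM for macrophage genes. They were 2055 and 2060.2 against 995 and 1056 FPKM for duct genes and 1363 and 1353 against 783 and 816 FPKM for acinar genes. In the acinar list Amy1, Pla2g1b, Rbpjl and Ptf1a stayed below the filter, and in the duct list Cftr. The table held 27 of 28 acinar and 9 of 13 lymphocyte markers, and those it lacks have no value here. No marker that it held was at 0 in all 4 libraries. Most tested markers of these cell types fell in the libraries in which beta cell genes rose and inflammatory and progenitor genes fell. The part of these cells in those changes was not tested.

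**Figure D3:**
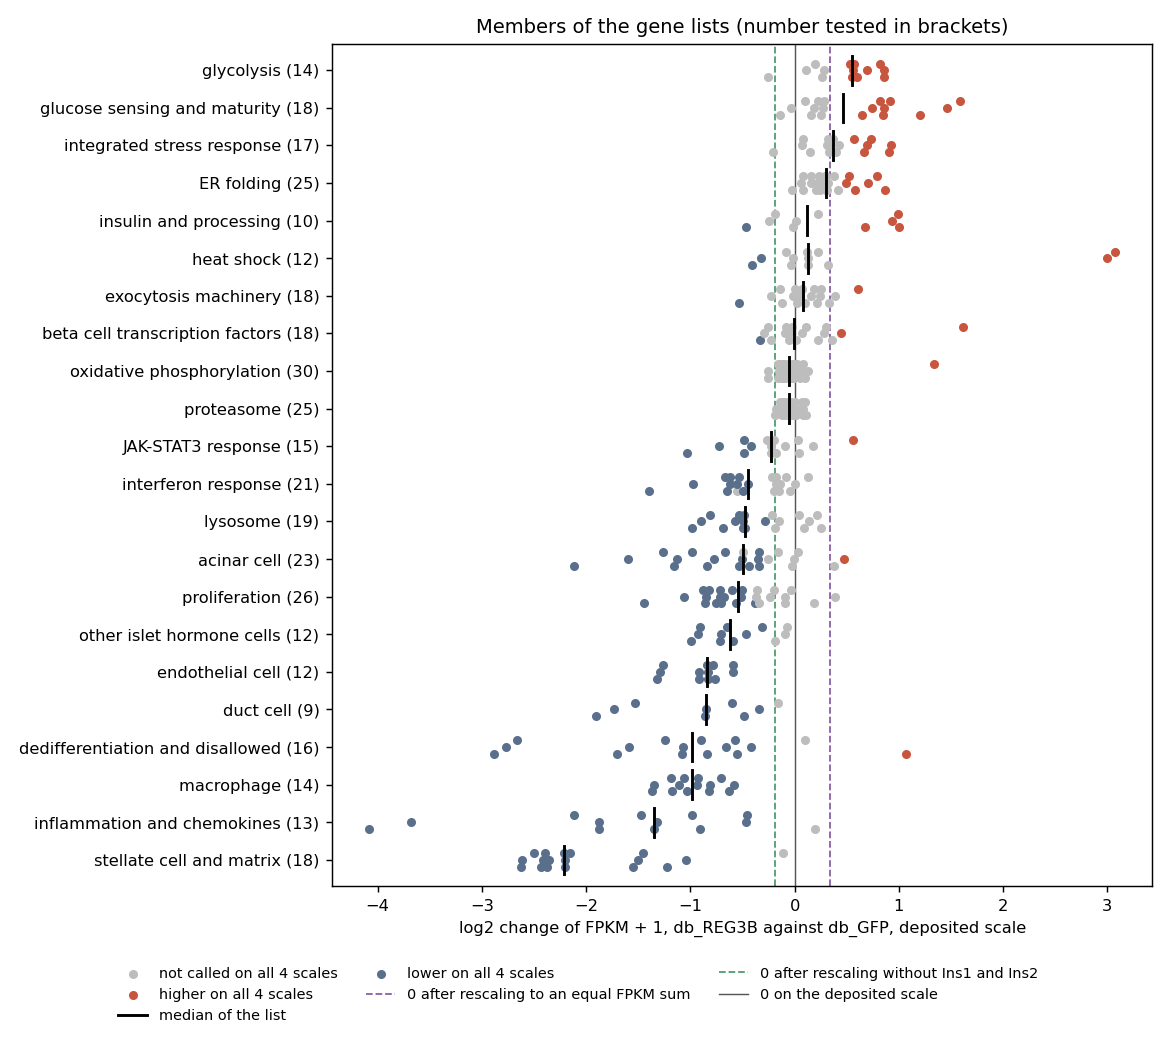
Each point is a tested member of 1 of 22 gene lists at its log2 change of FPKM + 1 on the deposited scale (horizontal axis), red where it rose on all 4 scales, blue where it fell and grey otherwise, with a black bar at the list's median. Dashed lines mark where 0 would lie on 2 other scales, and the medians run from 0.55 for glycolysis to -2.21 for stellate cell and matrix genes.

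Of 6 tested genes of the REG family, to which the agent itself belongs, and its receptor, 1 rose and 2 fell (median -0.09). Reg3b (chr6:78370885-78373466) measured 21.8 and 26.5 FPKM in db_GFP and 10.4 and 9.98 FPKM in db_REG3B. The db_REG3B libraries were lower than the db_GFP libraries, and Reg3b fell (log2 change -1.16, SE 0.0873, adjusted p = 6.75e-06). The labels do not say in which tissue REG3B was delivered or made, so the islet level of Reg3b does not check them. Reg1 fell from 78 and 81 to 47.7 and 46.5 FPKM (log2 change -0.74, SE 0.0459, adjusted p = 1.9e-06). Reg3a passed as higher from a low level (0.51 and 1.11 against 1.74 and 2.51 FPKM, log2 change 0.80, SE 0.17, adjusted p = 0.00441), and that call was lost without db_REG3B replicate 2 (adjusted p = 0.0587) and with no filter on low values (adjusted p = 0.0549). Extl3, described as a REG receptor, was lower on the deposited scale (15.7 and 15.1 against 11.8 and 13.5 FPKM, log2 change -0.27, SE 0.0735, adjusted p = 0.0154) and did not pass on the scale without insulin (log2 change -0.09). The deposited-scale call of Extl3 was also lost without db_GFP replicate 1 (adjusted p = 0.118), db_GFP replicate 2 (adjusted p = 0.0642) or db_REG3B replicate 1 (adjusted p = 0.0695), and with no filter on low values (adjusted p = 0.0638). In the chromatin remodelling complex SWI/SNF, 0 of 19 tested subunits rose and 1 fell (median -0.05). That subunit was Smarcd3 (chr5:24592622-24624456), which encodes the BAF60C protein and whose values, 3.18 and 2.61 against 1.29 and 1.61 FPKM, were low in both groups (log2 change -0.67, SE 0.111, adjusted p = 0.00102).

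Many cell cycle genes were lower in db_REG3B. Of 26 tested proliferation genes 16 fell and 0 rose (median -0.54), with Stmn1 at 12.3 and 12.8 FPKM in db_GFP and 3.91 and 4.08 FPKM in db_REG3B (log2 change -1.44, SE 0.0713, adjusted p = 4.68e-07), Plk1 at 1.61 and 1.89 against 0.32 and 0.31 FPKM (log2 change -1.06), Top2a at 1.92 and 1.81 against 0.62 and 0.53 FPKM (log2 change -0.86) and Ube2c at 2.59 and 4.03 against 1.22 and 1.41 FPKM (log2 change -0.88). Only 7 fell without db_GFP replicate 1 and 7 without db_GFP replicate 2. A gene above 1 FPKM only in db_GFP is then no longer tested, since at least 2 libraries must reach that level. In the apoptosis and p53 list 1 of 23 genes rose and 9 fell (median -0.15), and 6 fell without db_GFP replicate 1 or without db_GFP replicate 2. Cdkn1a, the cell cycle inhibitor p21, rose (44.8 and 46.7 against 76 and 75.5 FPKM, log2 change 0.72, SE 0.0458, adjusted p = 2.37e-06). The death receptor gene Fas (1.99 and 1.15 against 0.44 and 0.37 FPKM, log2 change -0.85) and Pmaip1 (2.32 and 2.27 against 0.94 and 0.78 FPKM, log2 change -0.83) were among those that fell. Lysosome genes, abundant in macrophages as well as in endocrine cells, had 11 of 19 members falling and 0 rising (median -0.47). Ctsz (199 and 197 against 97 and 102 FPKM, log2 change -0.98), Ctsl (560.2 and 580.2 against 325 and 324 FPKM, log2 change -0.81) and Ctsb (731 and 738 against 453 and 460.4 FPKM, log2 change -0.68), cathepsin proteases, were among them. The 25 proteasome genes had 0 members rising and 0 falling (median -0.05). Of 6 tested genes of serotonin and catecholamine metabolism 0 rose and 1 fell, the serotonin receptor gene Htr2b (1.74 and 2.11 against 0.62 and 0.74 FPKM, log2 change -0.80), which was not called without db_GFP replicate 1 or without db_GFP replicate 2. Th, the first enzyme of catecholamine synthesis, measured 50.9 and 49.8 FPKM in db_GFP and 58.7 and 65.6 FPKM in db_REG3B, higher on the deposited scale (log2 change 0.30) and not on the equal-sum scale (log2 change -0.04).

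Size also set the 2 directions apart. Among genes of at least 5 FPKM in the higher group, 253 rose and 1461 fell on all 4 scales, a rule that asks more of a rise. On the log2(FPKM + 1) scale, which understates the change of low genes, a change of at least 2-fold was reached by 32 of those that rose and 440 of those that fell, and 4-fold by 2 and 79. The 2 on that scale were Hspa1a and Hspa1b, while by the ratio of mean FPKM Asb11 (5.51-fold) and Kcnf1 (4.82-fold) also passed 4-fold. Others with large rises were Asb11, an adaptor of a ubiquitin ligase (1.71 and 1.48 against 8.6 and 8.97 FPKM, log2 change 1.92), Necab2, a neuronal calcium-binding protein (19.3 and 17.8 against 57.9 and 64.8 FPKM, log2 change 1.67), and the potassium channel subunit gene Kcnf1 (1.22 and 1.28 against 5.41 and 6.63 FPKM, log2 change 1.64). Fam151a (69.9 and 68.2 against 193 and 206 FPKM, log2 change 1.52), the secreted Angptl7 (3.78 and 3.78 against 12.4 and 11 FPKM, log2 change 1.41), the kinase gene Plk3 (32.3 and 32 against 84.7 and 87.8 FPKM, log2 change 1.40) and Ppp1r1a, an inhibitor of protein phosphatase 1 (49.8 and 50.0 against 121 and 124 FPKM, log2 change 1.27), completed the 15. Gal, which encodes the neuropeptide galanin, measured 25 and 23.3 FPKM in db_GFP and 0.34 and 0.58 FPKM in db_REG3B (log2 change -4.11, SE 0.0964, adjusted p = 5.59e-09). It stood second among the 15 largest falls on the log2(FPKM + 1) scale, behind Lrg1, while by the ratio of mean FPKM Ccl2 was lower by more than either, 121-fold against 69.1-fold for Lrg1 and 52.5-fold for Gal. These folds divide by db_REG3B means below 1 FPKM (0.11 for Ccl2, 0.655 for Lrg1 and 0.46 for Gal), so their size and order are uncertain. Matrix genes made up another share of the falls, with the protease Mmp7 (101 and 98.2 against 8.53 and 10.2 FPKM, log2 change -3.28), its inhibitor Timp1 (79.3 and 81.3 against 8.32 and 8.39 FPKM, log2 change -3.12), tenascin C (Tnc, 52.9 and 51.2 against 4.4 and 4.61 FPKM, log2 change -3.27) and fibulin 2 (Fbln2, 37.3 and 38.4 against 3.18 and 3.37 FPKM, log2 change -3.18). Itm2a, a membrane protein (30.8 and 33 against 2.73 and 2.91 FPKM, log2 change -3.11), and Serpinf1, the secreted PEDF (62.3 and 65.4 against 7.52 and 9.81 FPKM, log2 change -2.76), were the remaining ones. Among the largest absolute differences were also Clu, the secreted chaperone clusterin (1383 and 1369 against 366 and 406 FPKM, log2 change -1.83), Resp18 (3267 and 3355 against 1999.6 and 2261 FPKM, log2 change -0.64) and Tpt1 (2272 and 2307 against 1581 and 1529 FPKM, log2 change -0.56), all of which fell.

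**Figure D4:**
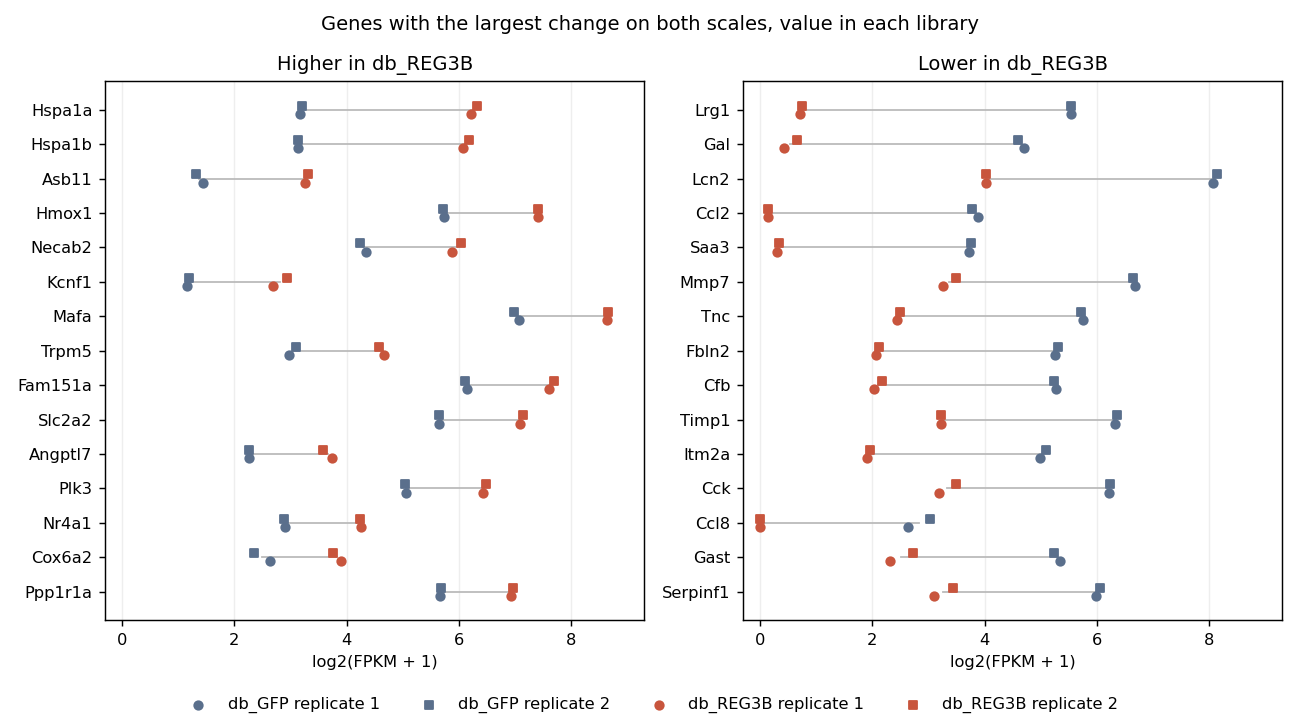
The level of each gene in each library is given as log2(FPKM + 1) (horizontal axis) for the 15 genes with the largest rise and the 15 with the largest fall, blue for db_GFP and red for db_REG3B, circles for replicate 1 and squares for replicate 2. Replicates mostly sit close together. The groups are apart for all 30 genes, as the rule for choosing them required.

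The series holds another comparison with REG3B, islets labelled KO_REG3B-Fc against KO_PBS with 2 libraries each, in a table normalized separately. The labels do not spell out KO, and Fc usually denotes the constant part of an antibody, which they do not state either. The fit there also held the CTR_PBS libraries, which entered the filter, the scaling and the estimate of the spread. No library is shared with the db groups, and differences between the comparisons were not tested. In that table the median gene shifted by 0.53, so values are after median scaling, where 2376 of 11789 genes (20.2%) were higher and 2917 (24.7%) lower. Of the 298 genes that rose in db_REG3B, 279 were tested there, and 129 (46.2%) were higher and 51 (18.3%) lower. Those 129 were 5.43% of the higher genes of that table. Of the 2477 that fell, 1836 were tested there, and 1084 (59.0%) were lower and 167 (9.10%) higher. Those 1084 were 37.2% of the lower genes of that table. Digestive enzyme transcripts took 40.4 and 41.5% of the FPKM sum in KO_PBS and 17.0 and 17.3% in KO_REG3B-Fc, against 0.146% or less in the db libraries, and their part in those values was not tested.

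Beta cell maturity genes were higher in both comparisons. After median scaling Mafa changed by 1.69 in db_REG3B and 0.83 in KO_REG3B-Fc, Slc2a2 by 1.54 and 0.70, Trpm5 by 1.65 and 1.03, and Gad1 by 1.27 and 1.21. Of 18 glucose sensing genes 17 were higher in KO_REG3B-Fc and 1 lower. Stellate genes were lower in both, with 13 of 14 lower there and a median of -0.93 against -2.14 in the db islets. Lrg1 changed by -4.76 and -2.20, Col1a1 by -2.55 and -1.48, and Cck by -2.82 and -0.92. On the deposited scale of the KO_REG3B-Fc table Lrg1 and Col1a1 stayed lower (-1.64 and -0.98), while Cck did not pass (-0.46, adjusted p = 0.0523). Other values pointed in opposite directions after median scaling. The list of other islet hormone cells had a median of -0.55 in db_REG3B and of 0.59 in KO_REG3B-Fc, with Gcg at -0.86 and 0.80 and Ppy at -0.52 and 0.79. The integrated stress response list had a median of 0.41 in db_REG3B and of -0.31 in KO_REG3B-Fc, where 11 of 16 genes were lower and 1 higher. The KO_REG3B-Fc values depend on the scale. On that table's deposited scale Nupr1, Fgf21 and Psat1 stayed lower (-0.96, -0.85 and -0.46), while Trib3 passed as higher (0.28, adjusted p = 0.00983). The list's other members are not given on that scale. After median scaling Hmox1 changed by 1.75 and -0.87. Ins1 changed by 1.08 and 0.09 (adjusted p = 0.34 in KO_REG3B-Fc) and Hspa1a by 3.14 and 0.10 (adjusted p = 0.0636). Both passed as higher in KO_REG3B-Fc on that table's deposited scale, by 0.72 and 0.72. Reg3b was lower in both, by -1.09 and -2.60.

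**Figure D5:**
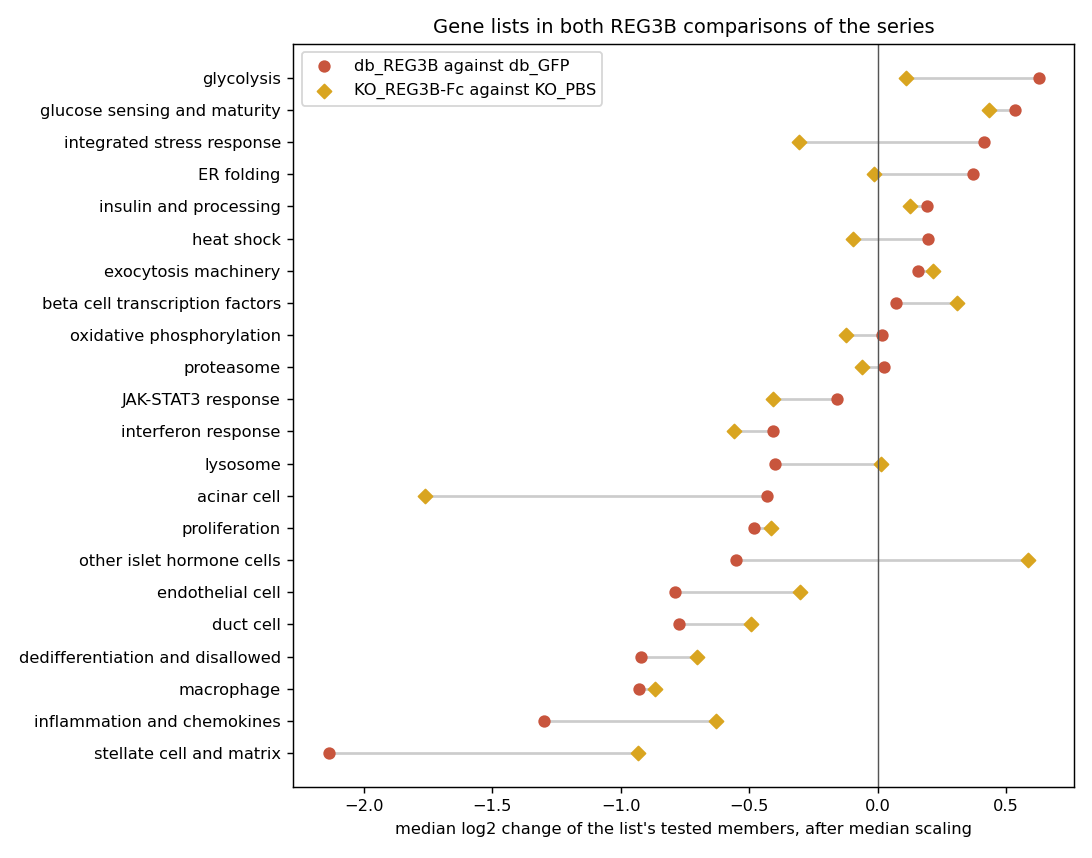
For 22 gene lists the median log2 change of tested members after median scaling (horizontal axis) is given in db_REG3B against db_GFP (red circles) and in KO_REG3B-Fc against KO_PBS (yellow diamonds), with a grey line between the 2. Stellate, macrophage and dedifferentiation medians lie left of 0 in both, while the median of other islet hormone cells lies at -0.55 in the db islets and at 0.59 in KO_REG3B-Fc.

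The authors' deposited table gives its own log2 fold changes and adjusted p-values for the db groups. Among the 12507 genes it called 2066 higher and 2232 lower at the threshold of 0.05. It called 287 of the 298 genes that rose and 2094 of the 2477 that fell in the same direction. In the authors' deposited table the log2 fold change was 1.03 for Ins2, 1.72 for Mafa, 3.32 for Hspa1a, -6.03 for Lrg1, -2.55 for Col1a1 and -1.17 for Reg3b. Some genes named above as rising or falling did not pass by the authors' adjusted p-value from DESeq2. Among them were H2-DMb1 (0.325), H2-Aa (0.196), H2-Ab1 (0.096), Reg3a (0.142), Isg15 (0.110), Socs1 (0.093), Cd4 (0.111), Hspb1 (0.323), Ube2c (0.077) and Dgat2 (0.198).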

How the data were processed

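Per the labels' protocols, each islet sample was a pool from at least 3 mice, and RNA was sequenced as paired-end messenger RNA libraries on a BGISEQ-500. Per the submitters' processing notes the genome build was GRCm38.p6, while alignment and counting programs are not given in the sources used here. The authors deposited FPKM per gene and library, together with a log2 fold change and an adjusted p-value (q-value) from DESeq2, per the file headers. FPKM carries no read count, so the depth behind a value is unknown and no counting interval can be given.

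Genes that reached 1 FPKM in 2 or more libraries were tested on log2(FPKM + 1) with limma 3.58.1 (R 4.3.3, trend, 2 residual degrees of freedom, only these 4 libraries, no covariate), which understates the change of low genes. Adjusted p-values are Benjamini-Hochberg over all genes tested. The fit was run on the deposited FPKM and after 3 rescalings, to an equal FPKM sum, to an equal sum without Ins1 and Ins2, and by the median ratio. The rule of a call on all 4 scales was chosen after seeing the data. The script was tested on simulated data. Other tables used pandas 2.3.3, numpy 2.4.6, Python 3.11.15 and matplotlib 3.10.9.

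The comparison, its 36 gene lists and the tests were chosen with earlier results of these data known. Genes are named where they were Reg3b, Smarcd3, Ins1, Ins2 or Gcg, among the 15 largest rises or falls whose higher group averaged 5 FPKM or more, or among the 10 largest FPKM differences. Further genes are up to 4 of the largest passing changes of a list, and predicted genes are left out. A few genes that the rule or a list holds are not reported here by name and are left out of the plot of beta cell genes. Iapp, Pam, Neurod1, Chga, Neurog3, Sox9, Aldh1a3, Maob, Rgs5 and Bhlha15, and members named to complete a count, fall outside this rule and were chosen after their values were seen. Gene positions and promoters are from RefSeq (GRCm38.p6), to which 16908 of 16958 Entrez IDs matched. Replicate numbers are shared between groups, but same-numbered libraries did not deviate together (correlation of deviations -0.0499), so libraries were not paired. Alternatives were another pseudocount (0.1), no filter or a filter at 5 FPKM, no trend, a replicate block and leaving out each library. The KO_REG3B-Fc and KO_PBS libraries were fitted with the same limma settings in their own table, together with its CTR_PBS libraries. The CTR_PBS libraries entered the filter, the scaling and the shared estimate of the spread, but were not compared. All remaining samples were not analysed here.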

Additional observations from a re-analysis of the deposited data

How the results depend on the processing

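On the deposited scale 1530 genes were higher, against 298 with an equal FPKM sum, 4832 with an equal sum without the insulin genes and 2590 after median scaling. Genes lower numbered 3856, 10367, 2477 and 3203. Leaving out 1 library gave 816 to 1542 genes higher and 2292 to 3759 lower on the deposited scale, also when the equal-sum call was required for the lower ones. Genes higher on all 4 scales numbered 237 to 275 and those lower 1632 to 2455. Of the 298 genes that rose, 222 to 246 kept the call without 1 library, and of the 2477 that fell 1591 to 2302. With 1 db_GFP library fewer, genes above 1 FPKM only in db_GFP are no longer tested. A filter at 5 FPKM, which tests fewer genes, left 1456 genes falling on all 4 scales. Distinct list members called higher numbered 129 (55 with an equal sum, 224 without insulin, 98 to 136 without 1 library) and those lower 240 (446 with an equal sum, 176 to 243 without 1 library). In KO_REG3B-Fc, 10157 genes were higher and 822 lower on the deposited scale, against 2376 and 2917 after median scaling. With a replicate block, which leaves 1 residual degree of freedom in the db fit, 1598 genes were higher and 4001 lower on the deposited scale and 288 and 2431 on all 4 scales. In KO_REG3B-Fc the block gave 10148 higher and 834 lower. In the db fit the block kept 282 of the genes that rose and 2395 of those that fell.

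Changes turned sign with an equal sum in Scg2 (-0.037), Napa (-0.0059), Dnajb1 (-0.0023) and Th (-0.038). They turned sign without the insulin genes in Sst (0.098), Sdhd (0.028), Psmb1 (0.014) and Psmb2 (0.047). None of these 8 values passed. With 2 libraries a group, every p-value rests on a spread shared across genes, and depth could not be judged from FPKM.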

Other observations

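The lists given here were put together after the values were seen, so their counts describe and support nothing. Genes induced by hypoxia had 11 of 26 members rising and 2 falling, with a median change of 0.30 on the deposited scale and -0.01 on the equal-sum scale. Among the members that rose, Pgk1, Tpi1, Ero1l and Pdk1 were already counted above in other lists, so this is not a separate set. Bnip3, a mitophagy receptor, measured 97.3 and 97 FPKM in db_GFP and 226 and 219 FPKM in db_REG3B and rose (log2 change 1.19, SE 0.0401, adjusted p = 4.19e-08). The glucose transporter gene Slc2a1 (27.2 and 28.7 against 54.6 and 56.7 FPKM, log2 change 0.97) and the vessel growth factor gene Vegfa (174 and 176 against 248 and 243 FPKM, log2 change 0.49) rose as well. The 2 that fell were Car9, a carbonic anhydrase (6.88 and 6.42 against 0.8 and 1.05 FPKM, log2 change -1.99), and Higd1a (10.1 and 10.6 against 7.07 and 6.8 FPKM, log2 change -0.51).

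All 13 tested genes of the acute phase and complement fell (median -2.12), and so did all 18 tested matrix proteases and their inhibitors (median -1.58). Without 1 library 10 to 13 and 16 to 18 of them fell. Lrg1, Saa3, Lcn2, Cfb, Clu, Mmp7 and Timp1, all members of these lists, were already described above. Of 80 tested cytosolic ribosomal protein genes 59 fell and 0 rose (median -0.37), and 39 fell without db_GFP replicate 2. Together they took 6.11 and 6.33% of the FPKM sum in db_GFP and 3.91 and 3.76% in db_REG3B.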
